A study of Mus musculus with 8 samples.

Results

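The genes of the IgLON family, Opcml, Ntm, Lsamp, Negr1 and Iglon5, were followed in RNA-seq of embryonic mouse cortex. The members are the 5 rows with these symbols among the 23284 gene symbols of the count files, and all 5 passed the filter on low counts that left 14696 genes for testing. Opcml was chosen because it is among the changed genes of the study, so its difference between the genotypes is given here as a description with no p-value. The other 4 members were taken for belonging to the same family, and their differences were tested.

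IgLON proteins are small cell adhesion molecules of the immunoglobulin superfamily. They are tethered to the outer face of the neuronal membrane by a glycosylphosphatidylinositol (GPI) anchor, have no cytoplasmic part, and bind one another as homodimers and heterodimers within and between cells. In the brain they are known for effects on neurite outgrowth, axon guidance and the formation of synapses, and they can be released from the surface by proteases.

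Cortices came from E15.5 C57BL/6 embryos, with 4 libraries of the WT genotype and 4 of the ErbB4-/- genotype, here called ErbB4 KO. The ErbB4 KO mice lack the receptor tyrosine kinase ErbB4 throughout the body but carry an ErbB4 transgene under the cardiac α-MHC promoter, which lets them survive. The RNA is that of dorsal cortex freed of its meninges and of the ganglionic eminences. Each genotype was bred in a homozygous colony of its own, so genotype and colony or litter cannot be told apart. Nothing in the sources used here says whether libraries shared a litter.

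The libraries held 28205703 to 48871480 counts. Erbb4 was not lower in the libraries labelled ErbB4 KO, at 20.7 to 24.6 CPM (counts scaled to a common library size), than in the WT libraries, at 8.99 to 25.3 CPM. Counts over the whole gene do not say which exons the reads came from, and the groups are named by their labels throughout. Xist, the RNA that coats the inactive X chromosome, was at 983 to 1687 CPM in WT replicates 1 to 3 and at 2.70 to 3.82 CPM in the other 5 libraries. The Y-linked gene Ddx3y was at 0.257 to 0.495 CPM in WT replicates 1 to 3 and at 76.4 to 80.9 CPM in the other 5, so values from those 5 libraries alone are also given for each member and for several lists. WT replicate 1 stood apart in its dependence on transcript length (Spearman's rho of its deviation from the other libraries with length -0.58 across genes, against 0.0378 to 0.223 in the others).

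Opcml and Ntm are next to each other in the genome. Opcml, which encodes the opioid-binding cell adhesion molecule OBCAM, lies on the plus strand at chr9:27598360-28732995 (NCBIM37, mm9, ENSMUSG00000062257.6). Ntm, which encodes neurotrimin, lies on the minus strand at chr9:28802335-29770726 (ENSMUSG00000059974.4). Their 3′ ends face each other across 69.3 kb, and the pair spans 2.17 Mb. Lsamp, which encodes the limbic system-associated membrane protein, lies on the plus strand at chr16:41532971-42181792 (ENSMUSG00000061080.5). Negr1, which encodes neuronal growth regulator, also called kilon, lies on the plus strand at chr3:156224758-156979409 (ENSMUSG00000040037.6). Iglon5, whose protein is the target of autoantibodies in anti-IgLON5 disease, lies on the minus strand at chr7:50728277-50745445 (ENSMUSG00000013367.4). Its gene spans 17.2 kb, whereas the other 4 span 649 to 1135 kb. The coding sequences differ far less in size, at 336 to 348 codons, and are split over 6 to 8 coding exons. No exon of another annotated gene overlaps an exon of any member, which matters because the libraries did not keep the strand.

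The coding sequences were compared because reads of near-identical genes can be assigned to the wrong member. Opcml was most like Ntm, with 71.1% identical bases over 1014 aligned positions. It shared 59.1% with Lsamp, 57.9% with Iglon5 and 55.3% with Negr1, and the other pairs shared 51.6% to 59.3%. Of the 1074 columns of the alignment of all 5, 316 held the same base in every member. The following stretch of 60 coding bases is shown because, of the windows that align without a gap and lie in 1 coding exon of each member, it has the highest mean identity to Opcml. It lies in coding exon 3 of Opcml, Ntm and Iglon5 and in coding exon 2 of Lsamp and Negr1, and capitals mark bases that differ from Opcml (GENCODE annotation of NCBIM37, each on the strand of its gene).
Opcml, chr9:28482750-28482809, plus strand: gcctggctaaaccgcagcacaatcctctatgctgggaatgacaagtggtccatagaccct
Ntm, chr9:28986749-28986808, minus strand: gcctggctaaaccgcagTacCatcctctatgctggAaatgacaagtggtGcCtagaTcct
Lsamp, chr16:41889059-41889118, plus strand: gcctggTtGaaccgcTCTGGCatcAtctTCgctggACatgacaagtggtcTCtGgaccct
Negr1, chr3:156522432-156522491, plus strand: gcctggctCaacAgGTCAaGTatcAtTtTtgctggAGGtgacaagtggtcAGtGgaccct
Iglon5, chr7:50734513-50734572, minus strand: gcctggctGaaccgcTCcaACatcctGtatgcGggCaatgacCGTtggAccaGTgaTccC

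In this window Ntm differed from Opcml at 6 of the 60 bases, Lsamp and Iglon5 each at 16 and Negr1 at 17. A read of 50 nt would therefore carry several mismatches to Opcml if it came from Lsamp, Negr1 or Iglon5 here. The main Opcml and Ntm transcripts were nowhere identical over more than 45 coding bases, which is less than a read. An exception lies in alternative first exons. The annotated transcripts Opcml-005 and Ntm-004 share a run of 124 identical bases, of which 29 precede the start codon and 95 are coding. The coding part of this run, within which a whole read cannot tell Opcml from Ntm, is shown, and capitals mark the start codon.
Opcml-005, chr9:28211831-28211925, plus strand, and Ntm-004, chr9:29219213-29219307, minus strand: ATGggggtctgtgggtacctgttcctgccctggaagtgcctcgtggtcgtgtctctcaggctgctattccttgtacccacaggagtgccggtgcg

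Of all runs of 50 bases in the coding transcripts of Opcml, 75 of 7206 (1.04%) also occurred in a transcript of another gene, in each case Ntm. For Ntm the share was 98 of 3795 (2.58%), for Iglon5 4 of 2570 (0.156%), and for Lsamp and Negr1 it was 0 of 10554 and 0 of 6676. How the counting treated reads that map to both Opcml and Ntm is not given in the sources used here.

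The family was present at very different levels in E15.5 cortex. Levels were compared as RPKM, reads per kilobase of exon scaled to library size, with the union of the annotated exons as length. Iglon5 had the highest level, with 48.6 ± 2.64 RPKM over the 8 libraries (mean ± SD), and Negr1 was next with 24.4 ± 1.61 RPKM. Ntm followed with 7.59 ± 0.339 RPKM and Opcml with 5.69 ± 1.07 RPKM. Lsamp was lowest, with 1.75 ± 0.231 RPKM. No pair of neighbours in this order had overlapping ranges, and each gene was above the next in 8 of 8 libraries. With the longest transcript as length the levels were 48.6, 32.9, 19.4, 11.2 and 2.11 RPKM, so the order was the same while the distance between Ntm and Opcml widened.

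**Figure D1:**
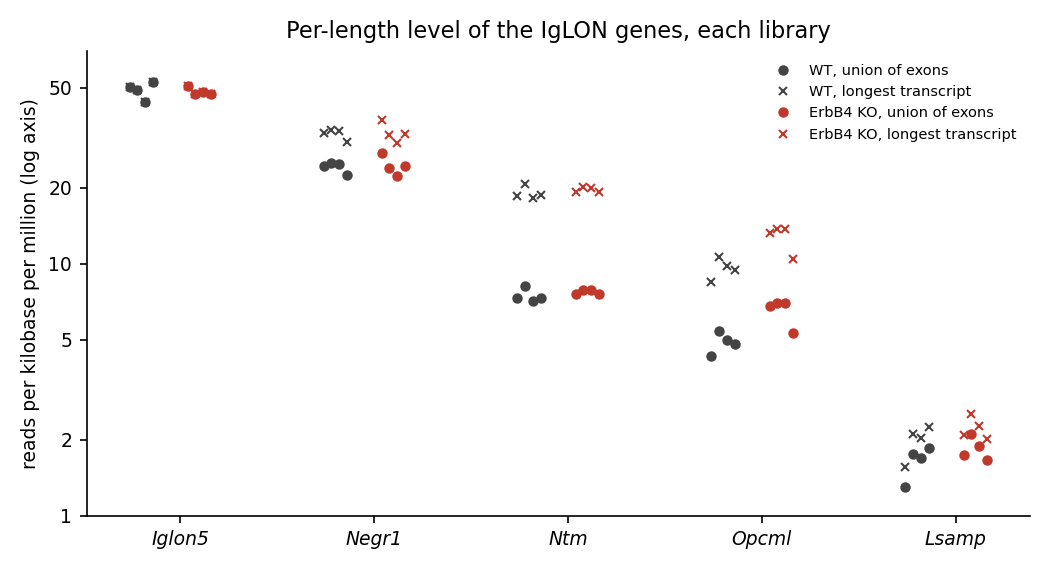
Per-length level (RPKM, log axis) of each IgLON gene in each library, in grey for WT and red for the libraries labelled ErbB4 KO. Filled points use the union of exons as length and crosses the longest transcript, and the order from Iglon5 (48.6 RPKM) down to Lsamp (1.75 RPKM) is the same on both.

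Opcml was higher in the libraries labelled ErbB4 KO. In CPM, after TMM normalization, it was at 56.5, 71.2, 65.1 and 62.8 in WT replicates 1 to 4. It was at 88.8, 91.9, 91.6 and 69.5 in ErbB4 KO replicates 1 to 4. All 4 libraries labelled ErbB4 KO were above the WT mean and 3 of them were above every WT library, but replicate 4 was below WT replicate 2, so the groups overlapped. These values rest on 1583 to 4372 reads per library, so counting error is small beside the spread between libraries. The means were 63.9 ± 6.09 CPM in WT and 85.4 ± 10.7 CPM in ErbB4 KO (SD, n = 4 each), a ratio of 1.34. The fitted log2 fold change was 0.42 (SE 0.097, 95% interval 0.21 to 0.63). A fold change at least this high was fitted for 2.88% of the 14696 genes tested. Without replicate 4 the ErbB4 KO mean was 90.7 ± 1.72 CPM (SD, n = 3) and the log2 fold change was 0.50. In the 5 libraries with low Xist, in which WT is represented by replicate 4 alone, the log2 fold change of Opcml was 0.44.

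Ntm, the neighbour and closest relative of Opcml, stayed within a narrow range. It was at 59.0, 65.8, 57.6 and 59.3 CPM in WT and at 61.1, 63.6, 63.3 and 61.1 CPM in ErbB4 KO. The highest of all 8 libraries was WT replicate 2, and every library labelled ErbB4 KO lay within the WT range. The means were 60.4 ± 3.66 and 62.3 ± 1.36 CPM (SD, n = 4 each), with a log2 fold change of 0.04 (SE 0.060, 95% interval -0.09 to 0.17, edgeR adjusted p = 0.871). The exact two-sided permutation test over the 70 assignments of the libraries, which cannot go below 0.0286, gave p = 0.4.

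Lsamp had the fewest reads, 385 to 905 per library, and the widest error. It was at 13.7, 18.6, 17.9 and 19.7 CPM in WT and at 18.4, 22.3, 19.95 and 17.7 CPM in ErbB4 KO. WT replicate 1 was the lowest library and ErbB4 KO replicate 2 the highest, with the other 6 interleaved. The means were 17.5 ± 2.62 and 19.6 ± 2.05 CPM (SD, n = 4 each), and the log2 fold change was 0.16 (SE 0.116, 95% interval -0.09 to 0.41, edgeR adjusted p = 0.810, exact permutation p = 0.371). This estimate leaned on single libraries, since it was 0.06 without WT replicate 1 and 0.09 without ErbB4 KO replicate 2, and it was -0.01 in the 5 libraries with low Xist. The upper bound of the interval, 0.41, lies close to the 0.42 fitted for Opcml.

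Negr1 and Iglon5, the most abundant members, had estimates near 0 over the 8 libraries. Negr1 was at 164, 169, 168 and 152 CPM in WT and at 185, 162, 149.7 and 164 CPM in ErbB4 KO. Both the highest and the lowest library of Negr1 carried the ErbB4 KO label. Its log2 fold change was 0.02 (SE 0.067, 95% interval -0.13 to 0.16, edgeR adjusted p = 0.962, exact permutation p = 0.943). Iglon5 was at 131, 128, 115 and 137 CPM in WT and at 133, 123, 126 and 124 CPM in ErbB4 KO. All libraries labelled ErbB4 KO fell inside the WT range of Iglon5. The log2 fold change was -0.01 (SE 0.061, 95% interval -0.15 to 0.12, edgeR adjusted p = 0.968, exact permutation p = 0.857). In the 5 libraries with low Xist the log2 fold changes were 0.12 for Negr1 and -0.12 for Iglon5, both farther from 0 than that of Ntm, which was 0.07. With Xist as a covariate they were 0.12 for Negr1, -0.13 for Iglon5, 0.07 for Ntm and 0.01 for Lsamp.

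Of the 4 members other than Opcml, 0 passed an adjusted p of 0.05 in edgeR, and 0 did so in DESeq2 or limma-voom. At an unadjusted p of 0.05 the count was also 0 with each of the 3 tools. Over all genes tested 0.0272% passed the adjusted threshold in edgeR and 0.161% in DESeq2, and 5.53% passed the unadjusted one in edgeR, so a count of 0 among 4 genes is near the background. Only 0.0068% of the genes tested passed as higher in ErbB4 KO. No member, Opcml included, had CPM values that separated the genotypes, which 3.34% of the genes tested did, 1.86% with the higher values in ErbB4 KO.

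**Figure D2:**
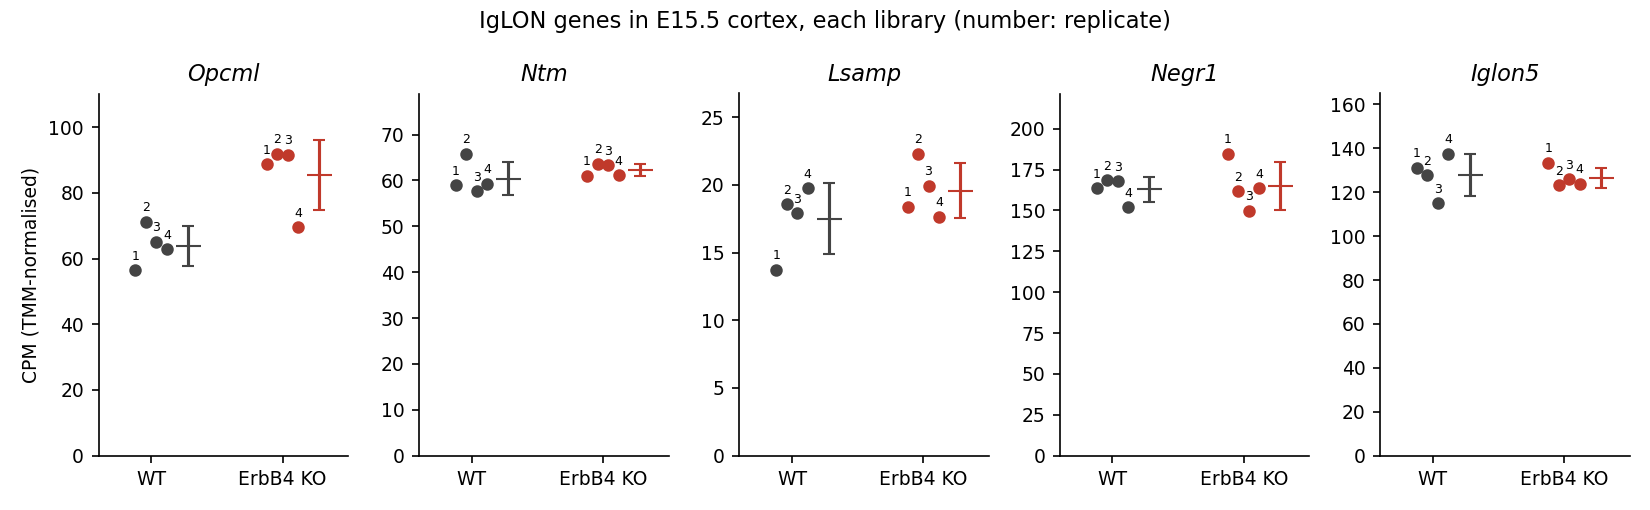
CPM of each IgLON gene in each library (points, numbered by replicate; axes start at 0), with the mean and SD of each group of 4 to the right. Opcml replicates 1 to 3 labelled ErbB4 KO sit at 88.8 to 91.9 CPM, above the highest WT library at 71.2, and replicate 4 sits at 69.5, while the groups of the other 4 genes overlap throughout.

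**Figure D3:**
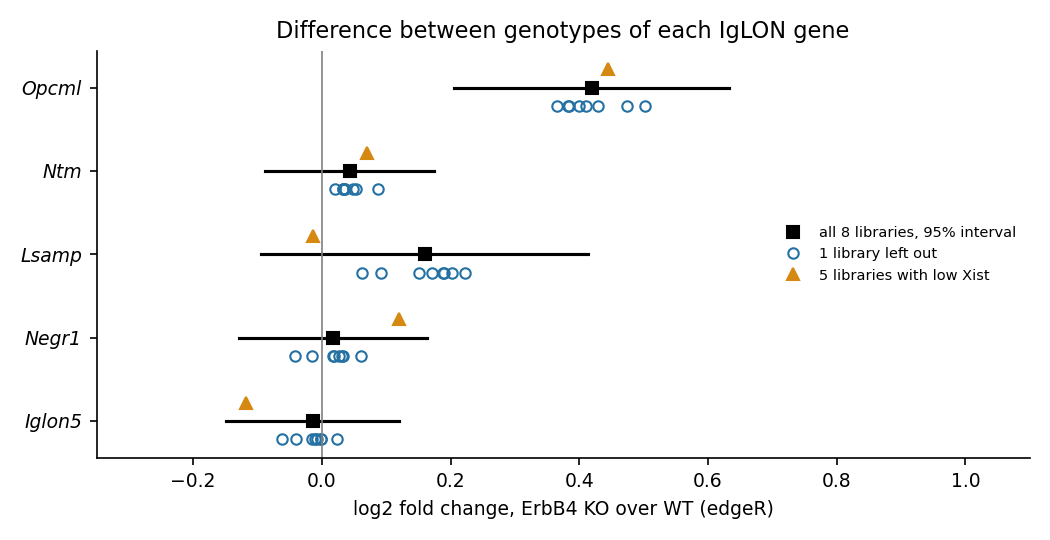
Log2 fold change of the libraries labelled ErbB4 KO over WT for each IgLON gene, with squares and lines for the estimate and its 95% interval, open circles for fits with 1 library left out and triangles for the 5 libraries with low Xist. The circles of Opcml run from 0.37 to 0.50, and the intervals of the other 4 genes include 0.

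Set against its own family, Opcml took a larger share in the libraries labelled ErbB4 KO. It made up 5.60% ± 0.549 of the summed RPKM of the 5 genes in WT and 7.32% ± 0.875 in ErbB4 KO (SD, n = 4 each), with ranges of 4.93% to 6.09% and 6.14% to 8.02%. Iglon5 made up 56.0% and 54.4% in the same groups, Negr1 27.9% and 27.5%, Ntm 8.59% and 8.68% and Lsamp 1.90% and 2.08%. These shares use the union of exons as length and would differ with the longest transcript. On that length the WT means were 9.57 RPKM for Opcml and 19.1 RPKM for Ntm, against 4.87 and 7.48 RPKM. The summed CPM of the 4 members other than Opcml was 369 ± 9.12 in WT and 373 ± 16.8 in ErbB4 KO. The ratio of Opcml reads to Ntm reads needs no normalization. It was 0.957, 1.08, 1.13 and 1.06 in WT and 1.45, 1.44, 1.45 and 1.14 in ErbB4 KO. On this ratio replicate 4 labelled ErbB4 KO was just above the highest WT library. The share and the ratio contain the Opcml counts that led to its choice, so they describe the same difference and do not add to it.

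The genes around Opcml and Ntm were examined next. Within 1 Mb of either end of the stretch the annotation placed 15 genes that are also in the count files, of which 10 besides Opcml and Ntm were tested. Of these 7 had a positive log2 fold change, with a median of 0.05 against -0.0022 over all genes tested. None of the 10 passed an adjusted p of 0.05 and none an unadjusted p of 0.05 in edgeR. Over all genes tested 0.0272% passed the adjusted threshold and 5.53% the unadjusted one, so a count of 0 among these 10 is near the background. On the Opcml side the nearest tested gene was Igsf9b, another adhesion molecule of the immunoglobulin superfamily, with a log2 fold change of 0.16. Jam3, a junctional adhesion molecule, had -0.16 and Vps26b, a retromer subunit, had 0.08. On the Ntm side the sorting nexin gene Snx19 had -0.01, and the extracellular protease genes Adamts15 and Adamts8 had 0.18 and 0.33. The last was the estimate farthest from 0 among the 10, for a gene with a mean of 1.88 CPM in WT. Glb1l2, Acad8, Thyn1 and Ncapd3 had 0.12, -0.08, 0.01 and 0.02.

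**Figure D4:**
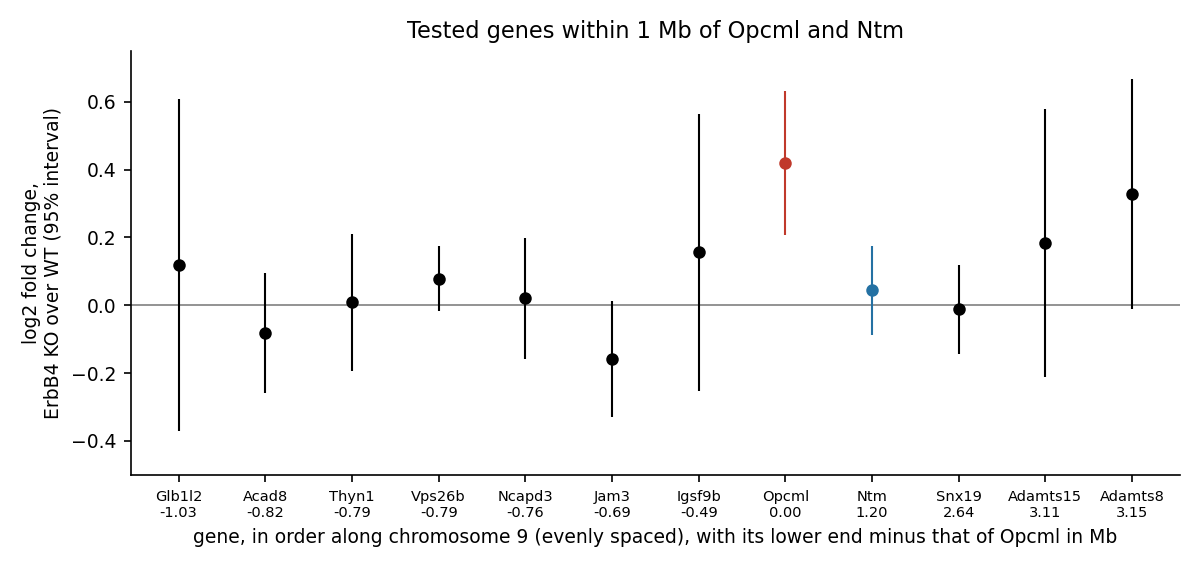
Log2 fold change with its 95% interval of the 12 tested genes within 1 Mb of Opcml and Ntm, in their order along chromosome 9, with Opcml in red and Ntm in blue. The number under each name is the distance of its lower end from that of Opcml in Mb, and the estimates of the 10 genes other than Opcml and Ntm have a median of 0.05. Opcml, at 0.42, was chosen for this contrast, so its interval is no test.

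Genes that work beside the IgLON proteins were described from lists chosen by function. Of 31 other neuronal adhesion molecules of the immunoglobulin superfamily, 24 had a positive log2 fold change, with a median of 0.12. None passed an adjusted p of 0.05 in edgeR, and 8 were higher and 1 lower at an unadjusted p of 0.05, where 441 of the 14696 genes tested were higher (3%) and 371 lower (2.52%). Thy1, a GPI-anchored protein of neurons and other cells, was at 13.1 ± 1.60 CPM in WT and 16.5 ± 1.60 CPM in ErbB4 KO, a log2 fold change of 0.34. Mdga2, a GPI-anchored inhibitor of neuroligin at synapses, was at 35.3 ± 4.24 and 44.0 ± 5.63 CPM, a log2 fold change of 0.32. The members with a negative estimate and the smallest p-values were Alcam, with -0.16, and Igsf11, with -0.10. Without WT replicate 1 the list had 22 positive members and a median of 0.06, with 6 higher and 1 lower at an unadjusted p of 0.05. The share of all genes at that p in that fit is not given here. In the 5 libraries with low Xist the list had 22 positive members and a median of 0.05.

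Of 21 further GPI-anchored neuronal proteins 14 had a positive log2 fold change (median 0.04), 0 passed the adjusted threshold in edgeR, and 3 were higher and 0 lower at an unadjusted p of 0.05, against 3% and 2.52% of all genes tested. The T-cadherin gene Cdh13 had 0.19 and the Nogo receptor-like gene Rtn4rl1 had 0.39, while the glypican genes Gpc1 and Gpc2 had -0.11 and -0.06. Without WT replicate 1 the median was 0.10 and 6 were higher at an unadjusted p of 0.05, with no share of all genes in that fit to set beside it. In the 5 libraries with low Xist 13 of the 21 were positive, with a median of 0.04.

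The list of 14 enzymes that release surface proteins, with their inhibitors, had 9 positive members and a median of 0.07. None passed the adjusted threshold in edgeR. At an unadjusted p of 0.05, 1 was higher and 1 lower, against 3% and 2.52% of all genes tested. The metalloproteinase inhibitors Timp3 and Timp1 had 0.31 and -1.003, the latter from a mean of 0.845 CPM in WT, and the membrane-type metalloproteinases Mmp24 and Mmp14 had 0.15 and -0.06. Without WT replicate 1 Mmp24 had 0.08 and Mmp14 -0.02. The median of the list was then 0.04, with 1 member higher and 0 lower at an unadjusted p of 0.05. The share of all genes in that fit is not given here. Of 7 receptor tyrosine kinases that have been described with IgLON proteins, 3 had a positive log2 fold change, with a median of -0.0031 and none past either threshold in edgeR. In the 5 libraries with low Xist 2 of the 7 were positive, with a median of -0.13. At an unadjusted p of 0.05, 1 was lower without WT replicate 1, without ErbB4 KO replicate 4 and with the length trend removed. Over the 8 libraries 2.52% of all genes tested were lower at that p, and the shares in those other fits are not given here. Among the 7 kinases Fgfr1 had 0.10, Erbb4 0.28, Fgfr3 -0.22 and Erbb2 -0.17. The estimate for Erbb4 was 0.06 without WT replicate 1, the library in which Erbb4 was lowest.

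The variation of Opcml between libraries of one genotype was followed to find genes with a like pattern. After the mean of each genotype was removed, log2 CPM of Opcml was compared with that of 10140 genes at a mean of at least 10 CPM, over the 8 libraries. The highest Pearson correlations were those of Mgat3 (0.991), Rundc3b (0.987), Fam160b1 (0.981), Necab1 (0.981) and Lancl3 (0.976). These are descriptions, since the libraries share depth, dissection and length dependence and the highest of 10140 values over 8 points will be high. Mgat3, a glycosyltransferase that adds the bisecting sugar to N-glycans, was at 135, 143, 140 and 138 CPM in WT and at 147, 147, 149 and 139 CPM in ErbB4 KO. Necab1, a neuronal calcium-binding protein, was at 13.8, 19.6, 16.9 and 16.3 CPM in WT and at 27.2, 32.0, 28.6 and 19.0 CPM in ErbB4 KO. In both genes, as in Opcml, WT replicate 1 was the lowest WT library and replicate 4 the lowest of those labelled ErbB4 KO. Without WT replicate 1 the correlation of Mgat3 was 0.988.

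The other members had lower correlations with Opcml than those 5 genes, as has every gene outside the highest 5. The same correlation was 0.680 for Lsamp, which ranked 661 among the 10140 candidates, and 0.554 for Ntm, which ranked 1334. It was 0.049 for Negr1 and -0.062 for Iglon5. The 5 most similar genes of each member had 0 names in common between any pair of members. Lists of 5 from 10140 candidates seldom share a name, so this count does not show that the members vary separately. In WT replicate 1, the library with the strong length dependence, log2 CPM minus the mean of the other WT libraries was -0.45 for Lsamp and -0.23 for Opcml. The same differences were -0.04 for Ntm, 0.01 for Negr1 and 0.05 for Iglon5. Lsamp and Opcml have the longest transcripts of the family. With the trend over transcript length removed the log2 fold changes were 0.37 for Opcml and 0.09 for Lsamp. The part of transcript length in these values was not tested.

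Markers of the cells in the tissue were summed in each library, because in bulk tissue a larger share of expressing cells and more RNA per cell cannot be told apart. Cortical neuron markers (8 of 9 listed were in the files) summed to 8089 to 8314 CPM in WT and 8269 to 8692 CPM in ErbB4 KO, and 4 of the 8 had a positive log2 fold change. Cortical progenitor markers (8 of 8) summed to 1939 to 2535 CPM in WT and 1909 to 2153 CPM in ErbB4 KO. Of these 0 had a positive log2 fold change, with a median of -0.21, and 4 were lower at an unadjusted p of 0.05 in edgeR, where 2.52% of all genes tested were lower, and 0 passed the adjusted one. Without WT replicate 1, 1 of the 8 had a positive estimate and the median was -0.14. In that fit 1 was higher and 3 were lower at an unadjusted p of 0.05. Without ErbB4 KO replicate 4, 0 of the 8 were positive, the median was -0.27 and 6 were lower at an unadjusted p of 0.05. That omission gave Opcml its highest log2 fold change with 1 library left out, 0.50. Shares of all genes at that p are not given for fits with 1 library left out, so those counts lack a background. In the 5 libraries with low Xist the median of the progenitor markers was -0.21 and 1 of the 8 was positive.

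By library, the progenitor sum and Opcml were 2535 and 56.5 CPM in WT replicate 1, 1939 and 71.2 in replicate 2, 2216 and 65.1 in replicate 3, and 2183 and 62.8 in replicate 4. In ErbB4 KO they were 1948 and 88.8 CPM in replicate 1, 1909 and 91.9 in replicate 2, 1990 and 91.6 in replicate 3, and 2153 and 69.5 in replicate 4. Within each genotype the library with the highest progenitor sum had the lowest Opcml, and the library with the lowest sum had the highest Opcml. WT replicate 2, whose progenitor sum was within the range of ErbB4 KO replicates 1 to 3, had Opcml at 71.2 CPM against 88.8 to 91.9 CPM. The part of tissue composition in the difference of Opcml was not tested.

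**Figure D5:**
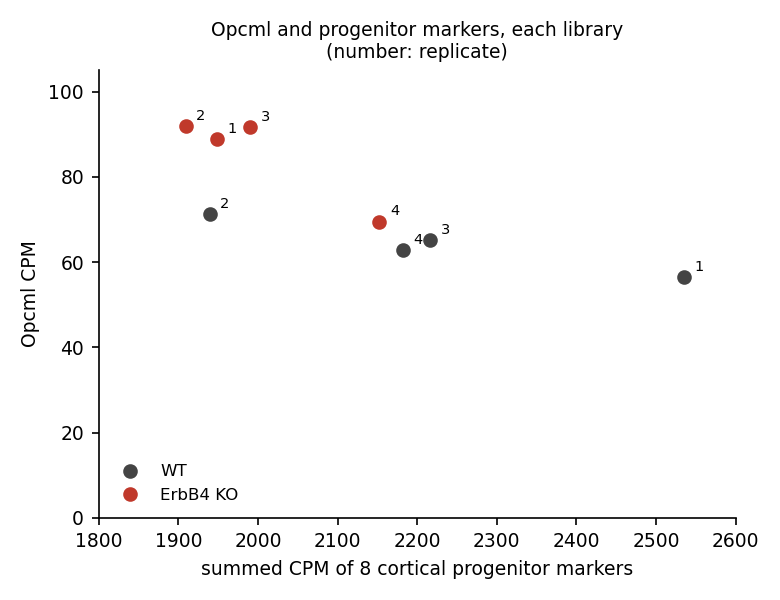
Opcml CPM against the summed CPM of 8 cortical progenitor markers in each library (numbers are replicates), in grey for WT and red for the libraries labelled ErbB4 KO. The x axis does not start at 0, and WT replicate 2 (1939 CPM of progenitor markers, 71.2 CPM of Opcml) lies below ErbB4 KO replicates 1 to 3 at a like progenitor sum.

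Summed markers of other cells overlapped between the genotypes. Ganglionic eminence and interneuron markers summed to 462 to 629 CPM in WT and 454 to 639 CPM in ErbB4 KO, meningeal markers to 8.47 to 9.92 and 8.70 to 14.2 CPM, and vessel markers to 94.7 to 102 and 95.6 to 103 CPM. Microglial markers summed to 37.1 to 45.9 and 38.6 to 46.2 CPM, oligodendrocyte lineage markers to 43.6 to 58.9 and 50.6 to 64.8 CPM, and astrocyte markers to 29.2 to 40.4 and 28.8 to 40.1 CPM. Red blood cell markers summed to 31.8 to 56.6 CPM in WT and 20.8 to 35.2 CPM in ErbB4 KO, with Hba-a1 at 0 in all libraries. At an unadjusted p of 0.05 in edgeR 2 of the 4 tested were lower, against 2.52% of all genes tested. The median log2 fold change of the 4 was -0.69. Without ErbB4 KO replicate 4 the median was -0.81 and 1 of 4 tested passed the adjusted threshold, which 2 genes in all passed. In the 5 libraries with low Xist, where 5 of the markers were tested, the median was 0.16. Oligodendrocyte lineage markers had 4 of 4 positive log2 fold changes (median 0.21), and a median of 0.38 in the 5 libraries with low Xist. Over the 8 libraries 2 of the 4 were higher at an unadjusted p of 0.05 in edgeR, against 3% of all genes tested. Astrocyte markers had 2 of 3 tested positive (median 0.48), and 1 was higher at an unadjusted p of 0.05, against the same 3%. In the 5 libraries with low Xist 4 astrocyte markers were tested, and 4 were positive, with a median of 0.34. Ganglionic eminence and interneuron markers had 3 of 7 positive (median -0.02), and 7 of 7 (median 0.25) in the 5 libraries with low Xist. Their part in the difference of Opcml was not tested.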

How the data were processed

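The authors prepared unstranded libraries from polyA RNA and sequenced them as single-end reads of 50 nt. They aligned these with HISAT to mm9 and made gene counts with HTSeq-count. The deposited values are raw counts, 1 per gene symbol. The versions, the gene annotation and the treatment of reads with several matches are not given in the sources used here. A further deposited table holds the authors' own DESeq2 comparison and was not used.

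The test was edgeR's quasi-likelihood F test (version 4.0.16, R 4.3.3), after filterByExpr (at least 10 counts, total of 15) and TMM, over 4 WT and 4 ErbB4 KO libraries with no covariate, with Benjamini-Hochberg adjustment over 14696 genes. The biological coefficient of variation was 10.7%. CPM are TMM-normalised, and log2 CPM have a prior count of 2. Single members were also compared with the exact two-sided permutation test. The fits of edgeR, limma-voom and DESeq2 with no covariate were also run on simulated counts, and the other alternatives were not. No 2 libraries of a group agreed within sampling noise. The labels do not say that replicates came from separate litters, so p-values measure only the spread between these samples.

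Gene symbols were looked up in the GENCODE annotation of NCBIM37, the same build as mm9, for positions and coding sequences. The sequences were aligned with MAFFT 7.526. Protein sequences were not used here, and coding bases were compared instead. The members and all lists were chosen with earlier results of these data known. Named genes are the members, Erbb4, Xist and Ddx3y, the tested genes within 1 Mb of Opcml or Ntm, the 5 genes most like Opcml, and in each list the 2 genes of smallest p in each direction.

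The alternatives were DESeq2 1.42.0, limma-voom 3.58.1, relative log expression and upper-quartile factors, a filter at a mean of 50 counts or none, a replicate block, an Xist covariate, removal of the trend over transcript length, the longest transcript as length, a threshold of 0.01 and each library left out in turn. Fits on the 5 libraries with low Xist (under 10 CPM), and the lists without single libraries or without the length trend, were added after seeing the data. In that fit WT has 1 library, which is assumed to vary like the others. Figures were drawn with matplotlib 3.10.9.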

Additional observations from a re-analysis of the deposited data

Results flagged for a closer look

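Opcml in ErbB4 KO replicate 4, at 69.5 CPM, lay apart from the other 3 libraries with that label, which were at 88.8, 91.9 and 91.6 CPM. Its gap to the nearest of them was 0.861 of the range of the group, past Dixon's 95% limit for 4 samples. In all, 10 groups of 4 libraries were examined, 1 for each member and genotype, and chance alone marks about 1 group in 20 in this way. This was the only one of the 10 past the limit.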

How the results depend on the processing

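The log2 fold change of Opcml was positive in 19 of 19 fits, from 0.37 without WT replicate 1 to 0.50 without ErbB4 KO replicate 4, and from 0.37 with the length trend removed to 0.45 with Xist as a covariate. In the same fits the 4 other members gave adjusted p-values of 0.588 to 1.00 for Ntm, 0.595 to 1.00 for Lsamp, 0.878 to 1.00 for Negr1 and 0.762 to 1.00 for Iglon5. Negr1, Iglon5 and Lsamp changed sign in some fits. With the length trend removed Negr1 gave -0.0199 and Iglon5 0.00053, and in the 5 libraries with low Xist Lsamp gave -0.0134. With 1 library left out, Negr1 ran from -0.0419 to 0.0608, negative without ErbB4 KO replicate 1 or WT replicate 4, and Iglon5 from -0.0614 to 0.0229, positive without WT replicate 4. The causes were not tested.

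The number of genes past the threshold was 4 in edgeR and 25 in DESeq2. It was 1 with relative log expression factors, with upper-quartile factors, with Xist as a covariate, with the 5 libraries of low Xist and at a threshold of 0.01, and 2 with the length trend removed. Leaving out 1 library gave 1 to 13 genes, with 13 without WT replicate 4, 2 without WT replicate 2 or ErbB4 KO replicate 4, and 1 without WT replicate 3 or ErbB4 KO replicates 1, 2 or 3. The background share is thus low in each, and 0 of the 4 other members passed in any.

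Same-numbered libraries of the 2 genotypes shared only a number, with residual correlations of 0.084, 0.135, 0.048 and 0.024, and 2 of the 4 WT libraries correlated best with their own number. With the replicate block the count of genes was 1 and the log2 fold changes were 0.42 for Opcml, 0.05 for Ntm, 0.17 for Lsamp, 0.01 for Negr1 and -0.01 for Iglon5.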
